A study of Homo sapiens with 12 samples.

Results

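Transcripts of 10 nuclear transport genes were followed in a human liver cancer cell line exposed to acriflavine, a mixture of acridine dyes that bind DNA. The genes encode the tRNA exporter XPOT, the export receptors XPO1, XPO4, XPO5, XPO6, XPO7 and CSE1L, the import receptors KPNA2 and KPNB1, and the GTPase RAN. They are a list of gene symbols, looked up by Ensembl identifier among the 63152 genes of the count table, and all 10 were found and passed the filter on low counts, as did 16839 genes in all. The list was chosen by symbol with results of these data known, among them the fold change of XPOT at 5 µM. The values of the 10 genes in all 3 comparisons are therefore given as a description, with no p-value. Where a member is said to be called, rise or fall, this says only on which side of the threshold used for all genes its value lay, and is no test of the list.

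Each of the 3 groups held 4 libraries: control cells, cells given 2.5 µM acriflavine and cells given 5 µM acriflavine, all collected after 24 h. One label calls the control cells untreated, whereas the treatment protocol names the vehicle DMSO. The cell line field reads HepG2, a hepatoblastoma line, and the sample descriptions name HepG2S1, a derivative made resistant to the kinase inhibitor sorafenib by exposure over months, so controls carry that selection too. All groups were grown in Williams medium E with serum, insulin and dexamethasone. The series calls the 4 libraries of a group biological replicates. No label gives separate passages or days, so the errors measure the spread between these libraries.

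Library totals were 10733567 to 15116842 counts. At an adjusted p under 0.05, 59.1% of the tested genes differed between 2.5 µM and control, 78.2% between 5 µM and control and 68.4% between the doses. Of 12 hepatocyte markers, 11 averaged under 1 CPM (the usual depth-scaled count, here on TMM-scaled library totals) in the controls, with albumin (ALB) and alpha-fetoprotein (AFP) at 0 counts there, while the urea cycle enzyme CPS1 stood at 2180 CPM. The labelled liver origin is thus not visible in most of its defining markers. The summed marker level in single libraries was 2140 to 2240, 1770 to 1800 and 936 to 971 CPM for hepatocytes in controls, at 2.5 µM and at 5 µM, nearly all of it CPS1. For 5 cholangiocyte markers it was 3620 to 4070, 3530 to 3990 and 1490 to 1780 CPM, mostly KRT7 (mean 3610 CPM in controls and 1580 at 5 µM). KRT19 was at 203 and 51.4 CPM in these groups, whereas SOX9 (1.73 and 15.8 CPM), EPCAM (3.57 and 5.88) and CFTR (0.0395 and 3.93) were higher at 5 µM. The sum was 619 to 769, 548 to 605 and 557 to 599 CPM for 7 fibroblast markers, mostly DCN (mean 563 CPM in controls and 450 at 5 µM) and LUM (119 and 82.1). COL1A1 (22.6 and 30.9 CPM) and PDGFRB (4.51 and 16.4) were higher at 5 µM. COL1A2 and THY1 had 0 counts in controls, and PDGFRA had 1. The 5 endothelial markers summed to 0.169 to 0.537, 0.616 to 1.36 and 7.13 to 8.69 CPM, higher with dose and mostly TEK (6.24 CPM at 5 µM), with PECAM1 at 0 counts in all groups. The 6 blood cell markers summed to 0.423 to 1.09, 0.703 to 4.70 and 2.4 to 3.66 CPM, with CD3E at 0 counts in all groups. The part of these shifts in the results below was not tested. CPM values are shares of a library, so they show neither the number of cells nor the RNA per cell. A rise or fall given here is relative to the rest of the library.

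Large molecules cross the nuclear pore bound to receptors of the karyopherin family, and the GTPase RAN gives the traffic its direction. Importins take up cargo in the cytoplasm and release it when RAN with GTP binds them in the nucleus. Exportins bind cargo together with RAN-GTP in the nucleus and release both when GTP is hydrolysed in the cytoplasm. XPOT is the receptor for mature tRNA, XPO1 for proteins with a leucine-rich export signal and for ribosomal subunits, XPO5 for microRNA precursors, and CSE1L for the return of importin alpha.

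XPOT, the tRNA exporter, was the member that moved most, and most of its loss was present at 2.5 µM. In the controls its level (ENSG00000184575) was 354, 369, 349 and 342 CPM. At 2.5 µM the 4 libraries gave 36.6, 37.2, 34.5 and 35.7 CPM, and at 5 µM 15.5, 15.1, 14.7 and 11.9 CPM. The 3 groups did not overlap, and each library at 5 µM lay below each at 2.5 µM. The log2 fold change was -3.29 ± 0.06 at 2.5 µM against control and -4.64 ± 0.06 at 5 µM against control, or 9.81-fold and 24.9-fold lower. The error is a standard error (SE) from the edgeR fit over all genes. Between the doses XPOT fell by a further 1.34 ± 0.07 on the log2 scale. Counted from the lowest log2 fold change of the 16839 genes tested, XPOT had rank 11 at 2.5 µM and rank 5 at 5 µM against control.

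The processed pseudogene XPOTP1 copies the XPOT transcript, and how the counting divided reads between them is not given in the sources used here. XPOTP1 had 105 ± 4.23 CPM in the controls (SD, n = 4), 9.62 ± 1.26 at 2.5 µM and 4.81 ± 0.493 at 5 µM. It held 23.0% ± 0.439 of the counts of both genes in the controls, 21.0% ± 1.72 at 2.5 µM and 25.3% ± 3.68 at 5 µM (SD, n = 4). The counts given to the pseudogene fell with those of its parent. Whether they are reads of XPOT was not tested. With both summed, XPOT stood at -3.329 and -4.591 on the log2 scale in the same 2 comparisons.

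**Figure D1:**
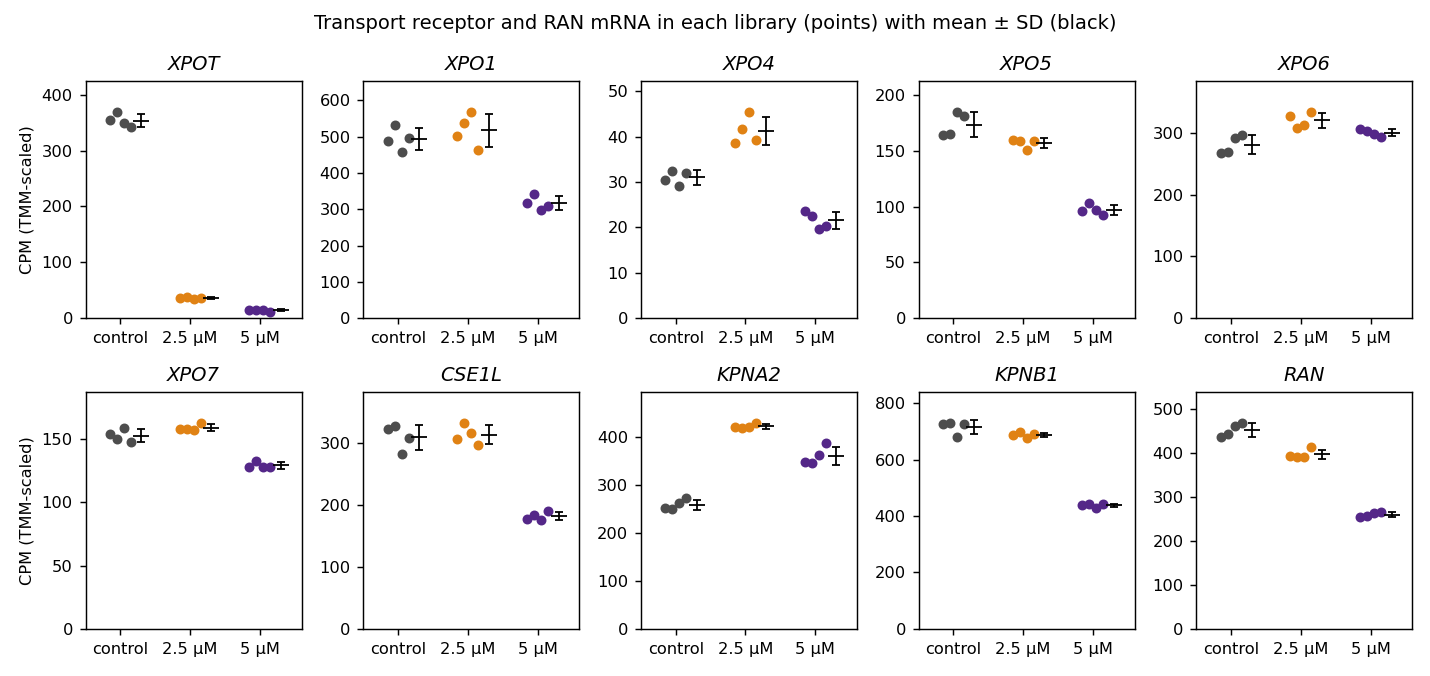
Level of each of the 10 transport genes (vertical axis, CPM on TMM-scaled library size, starting at 0) in the 4 libraries of each group (points), with mean and SD in black. XPOT drops from 342 to 369 CPM in the controls to 34.5 to 37.2 CPM at 2.5 µM, whereas XPO1, CSE1L and KPNB1 overlap between these groups and are lower at 5 µM, and KPNA2 is highest at 2.5 µM.

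XPO1, the general exportin of proteins and ribosomal subunits, was called lower at 5 µM and was not called at 2.5 µM, a call being an adjusted p under 0.05 over all genes. Its controls (ENSG00000082898) read 489, 531, 458 and 496 CPM, and the libraries at 2.5 µM 501, 537, 568 and 464 CPM. These ranges overlap, with a log2 fold change of 0.07 ± 0.06 that was not called. At 5 µM the values were 317, 343, 298 and 309 CPM, all under the lowest control, a change of -0.64 ± 0.06. An antisense gene shares 494 exon bases with XPO1 and had at most 5.56 CPM in any library.

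CSE1L, which carries importin alpha back to the cytoplasm, followed the same course. It was at 322, 327, 282 and 308 CPM in controls (ENSG00000124207) and at 307, 333, 317 and 297 CPM at 2.5 µM. These groups overlapped, and the log2 fold change of 0.02 ± 0.05 was not called. It turned to -0.049 without control replicate 3 and to -0.015 without 2.5 µM replicate 2. At 5 µM the 4 libraries held 178, 184, 176 and 191 CPM, below every control library (-0.77 ± 0.05).

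XPO5, which exports microRNA precursors, was lower at both doses. Controls were at 164, 165, 185 and 181 CPM (ENSG00000124571). At 2.5 µM they were followed by 160, 159, 151 and 159 CPM, a small step of -0.14 ± 0.05 without overlap. That call was lost when libraries were scaled by total counts alone (-0.095). At 5 µM the values were 96.1, 103, 96.9 and 92.2 CPM (-0.84 ± 0.05), well apart from both other groups. POLR1C, a gene on the other strand, shares 348 exon bases with XPO5. It had 49.7 ± 4.53 CPM in controls, 44.7 ± 2.01 at 2.5 µM and 54.2 ± 1.72 at 5 µM (SD, n = 4). Its mean was below control at 2.5 µM, like that of XPO5, and above control at 5 µM, unlike that of XPO5. The part of shared reads in the values of XPO5 was not tested.

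XPO4, which exports the translation factor eIF5A, went up and then down. In controls it was the member with the fewest counts, at 30.5, 32.5, 29 and 31.9 CPM (ENSG00000132953). The libraries at 2.5 µM gave 38.5, 41.6, 45.4 and 39.2 CPM, all above the controls (0.41 ± 0.07). Those at 5 µM gave 23.7, 22.5, 19.6 and 20.4 CPM, all under the controls (-0.53 ± 0.08). The step between the doses, -0.94 ± 0.07, was thus larger than either difference from control.

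XPO7, an exportin with a broad range of cargo, moved little. It read 154, 150, 159 and 148 CPM in controls (ENSG00000130227) and 158, 158, 157 and 163 CPM at 2.5 µM, overlapping groups whose difference of 0.06 ± 0.04 was not called. At 5 µM it was at 128, 133, 128 and 128 CPM, lower than all other libraries (-0.24 ± 0.04). With scaling by total counts alone the 2.5 µM difference was called at 0.103, and at 5 µM the log2 fold change ranged from -0.26 to -0.10 over 19 alternative settings.

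XPO6, which exports actin bound to profilin, was the one exportin without a call at 5 µM against control. Controls were at 268, 269, 292 and 296 CPM (ENSG00000169180) and the 2.5 µM libraries at 328, 308, 313 and 334 CPM, each above every control (0.19 ± 0.04). At 5 µM the values were 306, 303, 299 and 294 CPM, which overlapped the controls (0.09 ± 0.04). This difference was called in 6 of 19 alternatives, among them all 3 other scalings (RLE 0.125, upper quartile 0.144, total counts 0.231) and the fit without control replicate 4 (0.113). Against 2.5 µM the 5 µM libraries were lower without overlap (-0.09 ± 0.04) but not called. That call was made in 7 of 19 alternatives, with -0.102, -0.102, -0.097 and -0.102 without control replicates 1 to 4, and -0.121 and -0.113 without 2.5 µM replicates 2 and 3.

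KPNA2, an importin alpha that binds cargo with a classical nuclear localisation signal, was the only member called higher than control at both doses. It had 252, 250, 262 and 272 CPM in controls (ENSG00000182481). At 2.5 µM it reached 421, 419, 421 and 430 CPM, a log2 fold change of 0.70 ± 0.04. At 5 µM it was at 347, 346, 363 and 387 CPM, still above all controls (0.48 ± 0.04) and below all 2.5 µM libraries (-0.23 ± 0.04). The pseudogenes KPNA2P1, KPNA2P2 and KPNA2P3 together held 10.7% ± 0.487 of the counts of the parent and its copies in controls and 10.8% ± 0.298 at 5 µM (SD, n = 4). With their counts added, the 2 changes from control were 0.703 and 0.479.

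KPNB1, the importin beta that carries importin alpha and its cargo through the pore, was below control at 5 µM, where KPNA2 was above. Both genes were called lower at 5 µM than at 2.5 µM. Controls stood at 726, 731, 681 and 726 CPM (ENSG00000108424), and the 2.5 µM libraries at 687, 697, 677 and 690 CPM. These groups overlapped through control replicate 3, and the difference of -0.06 ± 0.04 was not called, although it was without that library (-0.104). At 5 µM KPNB1 had 439, 442, 429 and 441 CPM (-0.71 ± 0.04), far below the other 8 libraries. Its antisense partner with 267 shared exon bases had at most 3 counts summed over any group.

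RAN, the GTPase that the receptors depend on, was lower at both doses. Its controls were at 436, 443, 462 and 469 CPM (ENSG00000132341), the 2.5 µM libraries at 394, 390, 390 and 413 CPM and the 5 µM libraries at 255, 257, 263 and 265 CPM. No group overlapped another, with log2 fold changes of -0.19 ± 0.04 at 2.5 µM and -0.80 ± 0.04 at 5 µM against control. RAN has 9 listed pseudogenes, which held 32.4% ± 0.694 of the summed counts in controls, 30.8% ± 0.283 at 2.5 µM and 31.5% ± 0.493 at 5 µM (SD, n = 4). Most of this was RANP1, at 199 ± 10.9, 163 ± 1.76 and 109 ± 4.67 CPM in the 3 groups. Adding the counts of these pseudogenes gave -0.223 and -0.819, a course close to that of RAN alone, at a higher level. Reads that were counted for none of these genes are outside this sum, and how multiply matching reads were handled is not given.

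The members called lower were 3 of 10 at 2.5 µM against control, namely XPOT, XPO5 and RAN, where 28.5% of all tested genes were called lower. Those called higher were XPO4, XPO6 and KPNA2, where the figure for all genes was 30.7%. At 5 µM against control 8 of 10 were called lower and KPNA2 higher, beside 39.4% and 38.7% of all genes. At 5 µM against 2.5 µM 9 of 10 were called lower, beside 34.8% of all genes, and 0 higher, beside 33.6%. The median log2 fold changes of the 10 were 0.04, -0.68 and -0.68 in these comparisons, against 0.02, -0.01 and -0.01 over all genes tested. The groups did not overlap for 6, 9 and 10 of the members, where the shares of all genes were 50.5%, 70.8% and 62.1%. Since the genes were listed with results in view, nothing is read from these counts. The first 2 comparisons share the control libraries and the last 2 share the 5 µM libraries. The first and the last share the 2.5 µM libraries, with opposite sign.

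**Figure D2:**
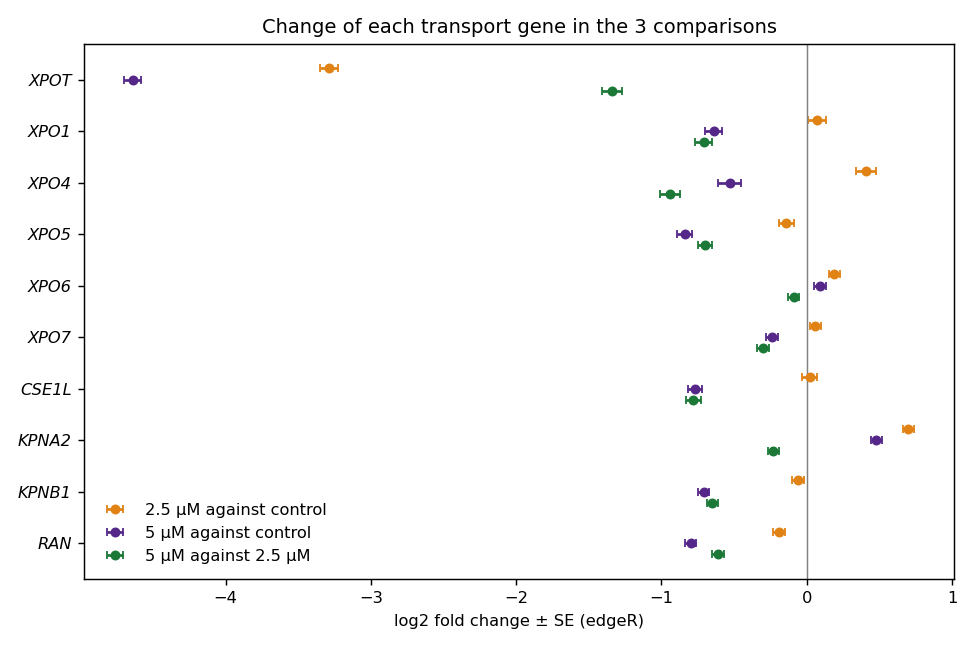
Log2 fold change (horizontal axis) of each of the 10 genes in the 3 comparisons, as points with bars of 1 SE from edgeR. XPOT lies at -3.29 and -4.64 against control, far left of the other members, which lie between -0.84 and 0.70 in those comparisons, and KPNA2 is right of 0 at both doses.

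By course over the doses the members fell into different sets. XPOT, XPO5 and RAN were called lower at each step, as were 14% of all genes. For XPOT the first step was the larger, and for XPO5 and RAN the second. XPO1, XPO7, CSE1L and KPNB1 were called lower only in the second step. XPO4 and KPNA2 were called higher in the first step and lower in the second, and XPO6 higher in the first. As a measure of likeness, the root mean square distance between control-centred log2 CPM values was taken over the 12 libraries. XPO5 and RAN were the closest pair (0.06), followed by CSE1L and KPNB1 (0.07). XPOT was 2.84 from its nearest member, XPO5.

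Promoter windows of 250 bases before the transcription start were searched on both strands for motifs of factors known to act on housekeeping, cell cycle and stress genes. RefSeq (GRCh38.p14) held windows for 8 of the 10 members, 10 windows in all, since XPO1 and XPO4 have more than one start. XPO7 and KPNB1 are named only. The CCAAT box, bound by NF-Y, occurred in 6 of the 10 windows, those of XPO1 (1 of its 2), XPO4 (both, at the same site), XPO6, CSE1L and KPNA2, and in 32% of all 35116 windows. The E-box CACGTG, bound by MYC and its relatives, occurred in 2 of the 10, the other window of XPO1 and that of RAN, and in 6.34% of all windows. The stress element TGATGNAA, bound by C/EBP and ATF factors, occurred in 0 of the 10 and in 3.14% of all windows. The sites are shown so that the letters around each match can be read beside the members' values. A match is a description of letters, not of binding, and no relation to the changes was tested. Each line gives 12 bases on either side, 5′ to 3′ in the direction of the gene, with the motif in capitals. ATTGG is the CCAAT box on the other strand.
XPO1 CCAAT, chr2:61538415-61538443, minus strand: ctggcgctcgggCCAATgagagataggct
XPO1 CCAAT, chr2:61538372-61538400, minus strand: agctggaactgaCCAATaggagggcgggc
XPO4 CCAAT, chr13:20902784-20902812, minus strand: gtcgcggcggcgATTGGccggccgcggcg
XPO6 CCAAT, chr16:28212010-28212038, minus strand: gctcgattccggATTGGtccggttccagc
CSE1L CCAAT, chr20:49046207-49046235, plus strand: agcggggccccgATTGGcccttcgaactt
KPNA2 CCAAT, chr17:68035634-68035662, plus strand: ttttcaaatccaCCAATgggcacacagct
KPNA2 CCAAT, chr17:68035665-68035693, plus strand: ggctcgaaccagCCAATcggaatgcggag
XPO1 E-box, chr2:61537114-61537143, minus strand: gtccgcctgcatCACGTGgccccctcggtg
RAN E-box, chr12:130871952-130871981, plus strand: gcacgcgcgggcCACGTGggcgggcgccgc

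Levels of different genes are comparable only per transcript length, so CPM was divided by the summed exon length of each gene in GENCODE 29, which counts all exons of all isoforms. In the controls RAN (93.8 ± 3.21 CPM per kb, SD, n = 4) and KPNB1 (93.3 ± 3.04) came first and overlapped. KPNA2 (82.6 ± 3.20) and CSE1L (81.5 ± 5.30) followed and overlapped too. XPOT was the highest of the remaining exportins by this measure, at 48.0 ± 1.57 CPM per kb. It lay above the range of XPO1 (42.1 ± 2.58), which overlapped that of XPO6 (39.8 ± 2.14). Before division by length XPO1 was the higher, at a mean of 493 CPM against 354 for XPOT. Their order thus rests on the summed exon lengths of 11.7 and 7.36 kb, which may differ from those of the transcripts present. XPO7 (22.1 ± 0.713) and XPO5 (20.4 ± 1.30) overlapped, and XPO4 was lowest at 2.95 ± 0.150. RAN is set too low here in as far as its reads were counted for RANP1, which stood at 306 ± 16.8 CPM per kb. The same holds for XPOT and XPOTP1, which stood at 43.9 ± 1.77 CPM per kb.

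The order changed with the drug. At 2.5 µM KPNA2 led with 135 ± 1.54 CPM per kb, and XPOT had dropped to 4.89 ± 0.160, below XPO5 (18.5 ± 0.465) and above XPO4 (3.92 ± 0.296). CSE1L and RAN overlapped there, as did XPO6 and XPO1. At 5 µM KPNA2 was at 115 ± 6.07 CPM per kb and KPNB1, its partner in import, at 57.0 ± 0.807. XPO6 (42.5 ± 0.761) then exceeded XPO1 (27.1 ± 1.64) without overlap. XPOT, at 1.94 ± 0.220, overlapped XPO4 (2.05 ± 0.179) as the lowest of the members.

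**Figure D3:**
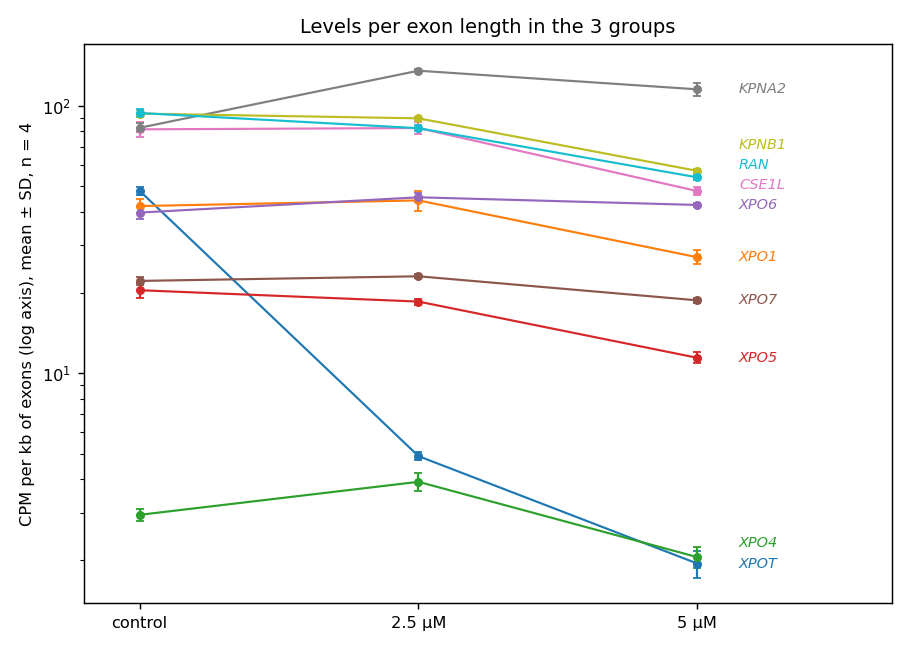
Mean level per kb of exons (vertical log axis, CPM per kb, bars are SD of 4 libraries) of the 10 genes in the 3 groups. XPOT goes from 48.0 in the controls, rank 5 of 10, to 1.94 at 5 µM, beside XPO4, while KPNA2 goes from 82.6 to 115.

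Of 11087 other protein-coding genes with a mean log2 CPM of at least 1, those closest to XPOT by the distance above were INHBE (0.48), ALDH1L2 (0.73), GPT (0.86), CLTCL1 (1.03) and KIF21B (1.09). INHBE encodes an activin subunit, ALDH1L2 a mitochondrial folate enzyme, GPT alanine transaminase, CLTCL1 a clathrin heavy chain and KIF21B a kinesin. Their log2 fold changes at 2.5 and 5 µM against control were -3.28 ± 0.15 and -4.06 ± 0.17 for INHBE, and -2.85 ± 0.13 and -3.61 ± 0.14 for ALDH1L2. They were -2.64 ± 0.18 and -3.68 ± 0.21 for GPT, -2.48 ± 0.07 and -3.05 ± 0.07 for CLTCL1, and -2.32 ± 0.10 and -3.07 ± 0.11 for KIF21B. The log2 fold change of XPOT was below those of all 5 at 5 µM, and at 2.5 µM INHBE was within 1 SE of it. Likeness was taken over the 12 libraries that share these groups, and says nothing of function.

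Partner genes of the transport system, 150 in 10 lists, were examined in the same fit. All 150 were found in the table. These lists too were chosen with earlier results of these data known, so the p-values of single genes are no test of a list. Of the other import receptors, 7 of 17 tested rose and 6 fell at 5 µM against control, where 38.7% of all genes were called higher and 39.4% lower, with a median log2 fold change of -0.08. HIKESHI, the import factor for HSP70 chaperones, fell from 50.4 to 23.7 CPM (-1.08 ± 0.07, edgeR adjusted p = 7.66e-16), and IPO8 by 0.63 ± 0.05 (adjusted p = 8.81e-14). IPO5 (-0.48 ± 0.04, adjusted p = 5.23e-13), an importin of ribosomal proteins and histones, and IPO9 (-0.46 ± 0.04, adjusted p = 4.61e-12) fell too. TNPO3, which imports SR splicing factors, rose from 126 to 180 CPM (0.51 ± 0.05, adjusted p = 4.17e-12). Among the importin alphas beside KPNA2, KPNA6 (0.46 ± 0.05) and KPNA4 (0.31 ± 0.06) rose and KPNA3 was at -0.13 ± 0.07 (edgeR adjusted p = 0.0802, and 0.0298 at -0.168 without control replicate 3). KPNA1 (0.11 ± 0.05, edgeR adjusted p = 0.0366) and KPNA5 (-0.42 ± 0.17, edgeR adjusted p = 0.0245) were called higher and lower, although their groups overlapped. The call of KPNA1 was lost without any one of 9 libraries: control replicates 1 (0.063), 2 (0.111) and 3 (0.094), each 2.5 µM library (0.099 to 0.103), and 5 µM replicates 2 (0.094) and 4 (0.086). That of KPNA5 was lost without control replicate 1 (-0.393) or 2 (-0.372) or 5 µM replicate 4 (-0.365). KPNA1 was also not called without the filter on low counts (0.099), nor KPNA5 with total counts (-0.289) or DESeq2 (-0.388). SNUPN, the adaptor for spliceosomal RNPs, rose by 0.43 ± 0.08. At 2.5 µM 9 of the 17 import receptors rose and 3 fell, with a median of 0.18, beside 30.7% and 28.5% of all genes.

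The mRNA export receptor went the other way to the tRNA exporter. NXF1, which carries mRNA through the pore without RAN, rose from 37.5 to 51.0 CPM at 2.5 µM and to 84.9 CPM at 5 µM (1.18 ± 0.07 against control, edgeR adjusted p = 4.22e-17). NXT2, a partner subunit of NXF1, rose from 19.3 to 43.2 and 50.8 CPM (1.39 ± 0.08, adjusted p = 2.90e-17). NXT1, the other partner, was at 38.8 and 38.5 CPM (-0.01 ± 0.07, adjusted p = 0.942), and its sign depended on the scaling and on single libraries (0.030 without control replicate 4 and 0.008 without 5 µM replicate 2). RANBP17, a paralog of XPO7, fell from 6.64 to 4.14 CPM (-0.67 ± 0.14). Of the 6 other export receptors listed, 4 were tested, with 2 higher and 1 lower at 5 µM against control. Of all genes 38.7% were called higher and 39.4% lower.

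Genes that drive the RAN cycle moved in both directions at 5 µM, with 4 of 7 lower, 2 higher and a median of -0.54, beside 39.4% of all genes lower and 38.7% higher. The exchange factor RCC1, which loads RAN with GTP on chromatin, fell from 107 to 73.7 CPM (-0.54 ± 0.05, edgeR adjusted p = 7.89e-11). RANBP1, which helps to release RAN-GTP from exportins, fell by 0.64 ± 0.05, and RANBP2, a nucleoporin that binds RAN-GTP, by 0.59 ± 0.12. NUTF2, which returns RAN-GDP to the nucleus, fell from 34.7 to 17.4 CPM (-0.99 ± 0.08, adjusted p = 1.79e-13). RANGAP1, which triggers GTP hydrolysis, was at 174 and 172 CPM (-0.02 ± 0.05, adjusted p = 0.712), with 0.016 without 5 µM replicate 4. With scaling by total counts alone it was called higher (0.113, adjusted p = 0.0429). RANBP3, a cofactor of XPO1, rose by 0.70 ± 0.06, and RANGRF, which binds RAN, by 0.51 ± 0.06.

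Nucleoporins, the proteins of the pore, were lower for 20 of 30 tested genes and higher for 5 at 5 µM (median -0.24). The smallest p-values were those of NUP210 (-0.67 ± 0.05), NUP133 (-0.70 ± 0.05) and NUP160 (-0.62 ± 0.05). The shares of all genes are the 39.4% lower and 38.7% higher given above, and no test compared a list with them. From each of the next 2 lists, too, the 3 genes with the smallest p-values are named. Of 15 mRNA export adaptors 9 fell and 4 rose, with the helicase DDX19A at -1.12 ± 0.06, THOC1 of the THO complex at -1.20 ± 0.10 and ALYREF at -0.57 ± 0.06. Of 8 cargo adaptors of XPO1 and related cap-binding genes 6 fell and 2 rose, with the ribosome assembly factors LTV1 (-0.88 ± 0.08) and RIOK2 (-0.73 ± 0.08) and with SRRT (-0.48 ± 0.06) among those that fell.

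Genes of tRNA processing and of RNA polymerase III transcription were called in both directions at 5 µM against control. Of 22 tested tRNA processing genes 9 rose and 10 fell, with a median of 0.00. Of all genes 38.7% were called higher and 39.4% lower in this comparison, and no test compared either list with these shares. Those with the smallest p-values fell: TSEN15 of the tRNA splicing endonuclease (-1.47 ± 0.06, edgeR adjusted p = 1.68e-21), the ligase complex helicase DDX1 (-0.81 ± 0.05) and SSB, the La protein that protects new tRNA ends (-1.67 ± 0.09). Of 22 RNA polymerase III genes, the enzyme that transcribes tRNA, 8 rose and 13 fell (median -0.26). Of the 3 with the smallest p-values, GTF3C1 (0.88 ± 0.05) rose while GTF3A (-0.98 ± 0.06) and GTF3C3 (-0.88 ± 0.06) fell. None of the named genes of these lists reached the log2 fold change of XPOT.

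For the microRNA pathway served by XPO5, 4 of 12 processing genes rose and 6 fell at 5 µM (median -0.20). Of all genes 38.7% were called higher and 39.4% lower. The 3 genes with the smallest p-values, named for that reason, were among those that fell. DICER1, which cuts the exported precursors, fell from 28.9 to 10.3 CPM (-1.51 ± 0.11, edgeR adjusted p = 6.51e-14). The Argonaute genes AGO3 and AGO1 fell by 0.85 ± 0.08 and 0.78 ± 0.06. Of 7 genes for protein cargo of single exportins, 2 rose and 5 fell, beside the same shares of all genes. Those named are the 3 with the smallest p-values. The actins ACTB (4920 to 2570 CPM, -0.93 ± 0.05) and ACTG1 (2030 to 731 CPM, -1.48 ± 0.06), cargo of XPO6, fell, whereas XPO6 overlapped its controls. SMAD3, a cargo of XPO4, rose by 0.74 ± 0.06.

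**Figure D4:**
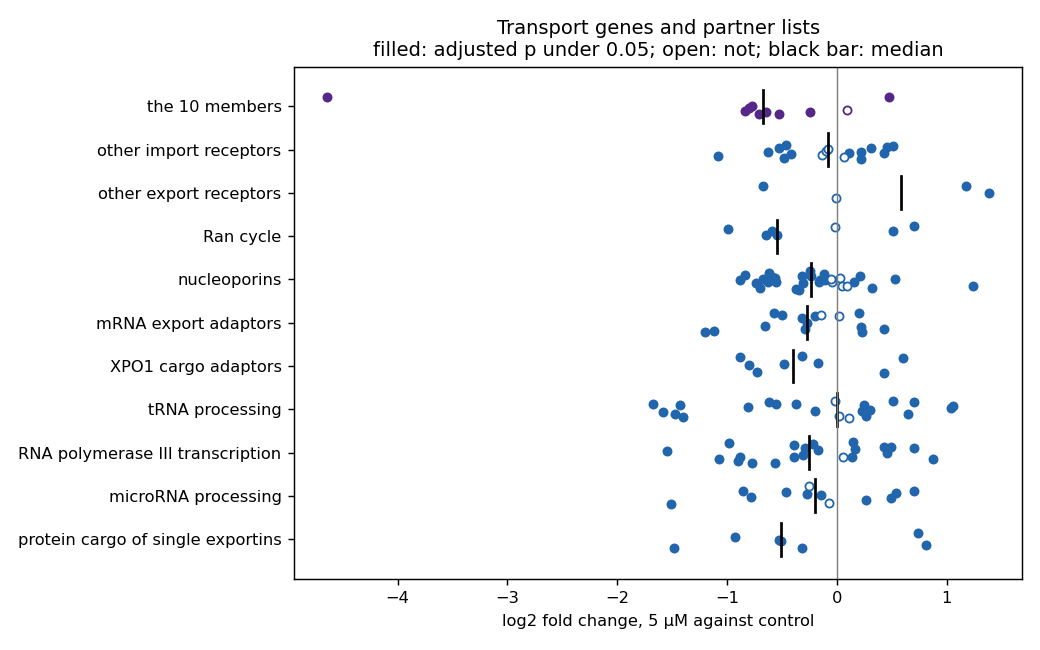
Log2 fold change at 5 µM against control (horizontal axis) of each tested gene in the 10 members and the 10 partner lists (rows), filled where the adjusted p was under 0.05, with the list median as a black bar. XPOT at -4.64 lies left of every other gene shown, and the lists spread to both sides of 0.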

How the data were processed

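Poly-A RNA of 12 cultures was made into stranded TruSeq libraries and sequenced on a NextSeq500, per the labels' protocols. The authors deposited raw counts of reads per Ensembl gene. The submitters' processing notes name GRCh37, STAR 2.4.1d, featureCounts 1.4.6 and edgeR 3.8.6 without their roles. No label or header used here names the strand setting, the handling of multiply matching reads or the gene annotation release. Symbols were matched by identifier for 51989 of 63152 genes, and 0 rows lacked a gene.

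Counts were filtered with filterByExpr, scaled by TMM and fitted with edgeR 4.0.16 in R 4.3.3 (glmQLFit, robust; glmQLFTest, 2-sided), with the 12 libraries in 1 fit of 3 groups, leaving 9 residual degrees of freedom. Benjamini-Hochberg adjustment covered all 16839 genes, with a threshold of 0.05. The SE is the absolute log2 fold change divided by the square root of F. CPM is the count scaled to TMM-adjusted library size, and likeness used log2 CPM with a prior count of 2. The steps were tested on simulated counts in which a small part of the genes changed, in the 5 µM group only. In the data 78.2% of genes were called at 5 µM against control, so the simulation does not check the scaling in that setting. The 66 pairs of libraries held 0 with identical counts.

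Members and lists were chosen with earlier results of these data known. All members, their pseudogenes, the receptors and RAN cycle genes could be named, the 3 genes with the smallest p at 5 µM from each other list, and the 5 genes most like XPOT. Alternatives were other scalings, no filter, DESeq2 1.42.0, a replicate block, fits of 2 groups, pseudogenes summed, and leaving out each library.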

Additional observations from a re-analysis of the deposited data

Results flagged for a closer look

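In 10 of 192 groups of 4 libraries examined, 1 value lay far from the other 3, its gap to the nearest exceeding the 95% critical value of Dixon's ratio for 4 values. Chance flags about 1 group in 20. Among the members, XPO5 was at 151 CPM in 2.5 µM replicate 3, against 159 to 160 in the others. XPO7 was at 163 CPM in 2.5 µM replicate 4 (others 157 to 158) and at 133 CPM in 5 µM replicate 2 (others 128). KPNA2 was at 430 CPM in 2.5 µM replicate 4 (others 419 to 421), and KPNB1 at 681 CPM in control replicate 3 (others 726 to 731). Among partner genes, KPNA5 was at 2.69 CPM in control replicate 3 (others 3.81 to 4.03), RANBP17 at 6.96 CPM in control replicate 2 (others 6.52 to 6.56) and ALYREF at 74.4 CPM in 2.5 µM replicate 3 (others 82.0 to 82.8). IPO11 was at 75.7 CPM in 5 µM replicate 2 (others 68.1 to 69.0), and IPO13 at 40.7 CPM in 5 µM replicate 4 (others 44.0 to 44.5).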

How the results depend on the processing

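Counts of genes called kept within 1.5 times of the reported 9957 (2.5 µM against control), 13165 (5 µM against control) and 11526 (5 µM against 2.5 µM) in all alternatives run. For XPOT, KPNA2 and RAN all 20 alternatives kept direction and call in the 3 comparisons, with XPOT at -4.68 to -4.50 at 5 µM against control. Scaling by total counts moved the median of all genes at 5 µM against control from -0.01 to 0.12, and every change given uses TMM. Log2 fold changes near 0 that turned sign, against control, were NXT1 at 5 µM (RLE 0.024, upper quartile 0.044, total counts 0.130, 2 groups only 0.013, DESeq2 0.025, and -0.050 to 0.030 without single libraries) and RANGAP1 at 5 µM (RLE 0.008, upper quartile 0.026, total counts 0.113, DESeq2 0.008, and -0.060 to 0.016 without single libraries). With total counts KPNA3 (0.009), IPO7 (0.030) and TNPO1 (0.056) at 5 µM and IPO5 (0.030) at 2.5 µM turned. Without single libraries CSE1L (-0.049 to 0.042) and IPO9 (-0.002 to 0.032) turned at 2.5 µM. The cause was not tested. Of 1463 alternative values of 49 partner genes, 1413 kept direction and call.

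The replicate numbers of the labels were not treated as pairs, since deviations of same-numbered libraries correlated between -0.13 and 0.0745. With a replicate block 9828, 13091 and 11423 genes were called, and no member changed its call. In 2 of 12 cases a library correlated best with its own number.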
